A study of Homo sapiens with 12 samples.

Results

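The clade B serpins are the intracellular branch of the serpin family of protease inhibitors. Of its genes, 10 were chosen by name: SERPINB1, SERPINB2, SERPINB3, SERPINB4, SERPINB5, SERPINB6, SERPINB7, SERPINB8, SERPINB9 and SERPINB13. They are 10 of the 61044 gene identifiers of the table, all 10 were found by symbol, and all 10 passed the filter on low counts that left 17532 genes for testing. They were measured in SCC-15, an established human cell line from an oral squamous cell carcinoma (OSCC). The question of the study was how the transcriptome responds to depletion of FMOD, the gene of the collagen-binding matrix protein fibromodulin, by short hairpin RNAs (shRNAs).

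Every library came from SCC-15 cells carrying a hairpin. The control group, shRNA-NC (here NC), carried a negative-control hairpin. The groups shRNA1-FMOD, shRNA2-FMOD and shRNA3-FMOD (here shRNA1, shRNA2 and shRNA3) each carried a different hairpin against FMOD. Cells were harvested 48 hours into treatment and total RNA was made into Illumina libraries, 3 for each of the 4 groups and 12 in all. Whether a hairpin group was 1 clone or a pool of cells, how the hairpins were delivered, and whether the 3 libraries of a group came from separate cultures are not given in the sources used here. The p-values therefore measure only the spread between these libraries, which may be technical.

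A serpin presents an exposed loop that a protease cuts as if it were a substrate. The loop then springs into the body of the serpin and drags the protease along, which traps and inactivates both. Most serpins are secreted, but those of clade B lack a classical signal peptide and act largely inside cells, where they meet granule proteases, lysosomal cathepsins that have leaked into the cytosol, or no known protease at all. In squamous epithelia several of them are differentiation products, and 2 of them, SERPINB3 and SERPINB4, were first described as squamous cell carcinoma antigens.

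Levels below are counts per 1000000 (CPM) of the library size scaled by the trimmed mean of M-values (TMM). Differences are log2 fold changes with their standard error (SE), and a difference was called at an adjusted p under 0.05, by the quasi-likelihood test of edgeR adjusted over all 17532 genes. The 3 comparisons with NC share the NC libraries, so a high or low NC level enters all of them.

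The libraries held 17286934 to 19567192 counts, of which the 10 members together took 0.0348% to 0.0875%. FMOD itself had 2 to 3 counts in each NC library and 0 counts in each of the 9 hairpin libraries. Since it was at or under 3 counts in every library, no fold was computed for it and it cannot check the labels. Across genes, on log2(CPM + 1) values, NC libraries correlated with each other at 0.993 or more and with hairpin libraries at 0.829 to 0.855. Libraries of shRNA3 stood apart from one another: libraries 1 and 2 correlated at 0.995, whereas library 3 correlated with them at 0.919 and 0.916 and with the libraries of shRNA2 at 0.988. Their scaling factors were 0.771, 0.795 and 1.06. Results that rest on shRNA3 are therefore also given without libraries 1 and 2, or without library 3, where these differ. Leaving out libraries 1 and 2 leaves shRNA3 with 1 library, which the fit assumes to vary like the other groups; such values are given with no p-value, since they hold no spread of shRNA3 itself.

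Of the 14 squamous epithelial markers, all were detected in each group, and their summed level was 3107 to 3340 CPM in NC, 2466 to 2715 with shRNA1, 3133 to 3239 with shRNA2 and 2891 to 5462 with shRNA3. Of the 14, 4, 5 and 8 were called higher and 4, 5 and 5 lower with shRNA1, shRNA2 and shRNA3. KRT17, a keratin of activated epithelium, was higher with each hairpin (1.05, 0.87 and 1.26, adjusted p at most 0.00181). KRT14, KRT6A and PERP were also called higher with each, whereas KRT5, DSC3, PKP1 and CDH1 were called lower with each. KRT5 averaged 1008 CPM in NC and 21.4, 80.1 and 74.8 CPM with the hairpins (-5.56, -3.65 and -3.75, adjusted p at most 1.08e-06). JUP, the desmosomal protein plakoglobin, averaged 504 CPM in NC and was called higher with shRNA3 (1.62, adjusted p = 0.00131). In bulk RNA, fewer cells of a type and less RNA per cell cannot be told apart.

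Every hairpin was accompanied by changes in both directions within the family. Against NC, 8 of 10 members were called with shRNA1 (5 higher, 3 lower), 10 of 10 with shRNA2 (5 higher, 5 lower) and 7 of 10 with shRNA3 (5 higher, 2 lower). Of all tested genes 57.4% were called with shRNA1 (26.8% higher, 30.6% lower), 53% with shRNA2 (24.6% higher, 28.4% lower) and 53.9% with shRNA3 (26.4% higher, 27.6% lower), so most tested genes of these cells differed from NC and a call by itself does not set a serpin apart. The 3 libraries of the hairpin did not overlap those of NC for the same 8, 10 and 7 members; across all tested genes that held for 74.3%, 79.6% and 57.5%. The median size of the log2 difference, whatever its sign, was 2.04, 1.87 and 1.66 over the members and 0.92, 0.85 and 0.87 over all tested genes. The members were chosen with earlier results of these data known, so this contrast is a description and not a test.

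SERPINB1, SERPINB2, SERPINB5, SERPINB6 and SERPINB8 were higher with each of the 3 hairpins, as were 16% of tested genes. SERPINB7 and SERPINB9 were lower with each of them, as were 19.7% of tested genes. SERPINB3, SERPINB4 and SERPINB13 were called lower with shRNA2, SERPINB13 also with shRNA1, and none of them was called with shRNA3. No member was called higher with one hairpin and lower with another, a pattern found for 0.502% of tested genes. Summed over the 10 members, the level was 326 ± 15.9 CPM (SD, n = 3) in NC, 779 ± 43.2 with shRNA1, 672 ± 12.5 with shRNA2 and 734 ± 56.6 with shRNA3. Most of that sum is SERPINB1, SERPINB5 and SERPINB6.

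**Figure D1:**
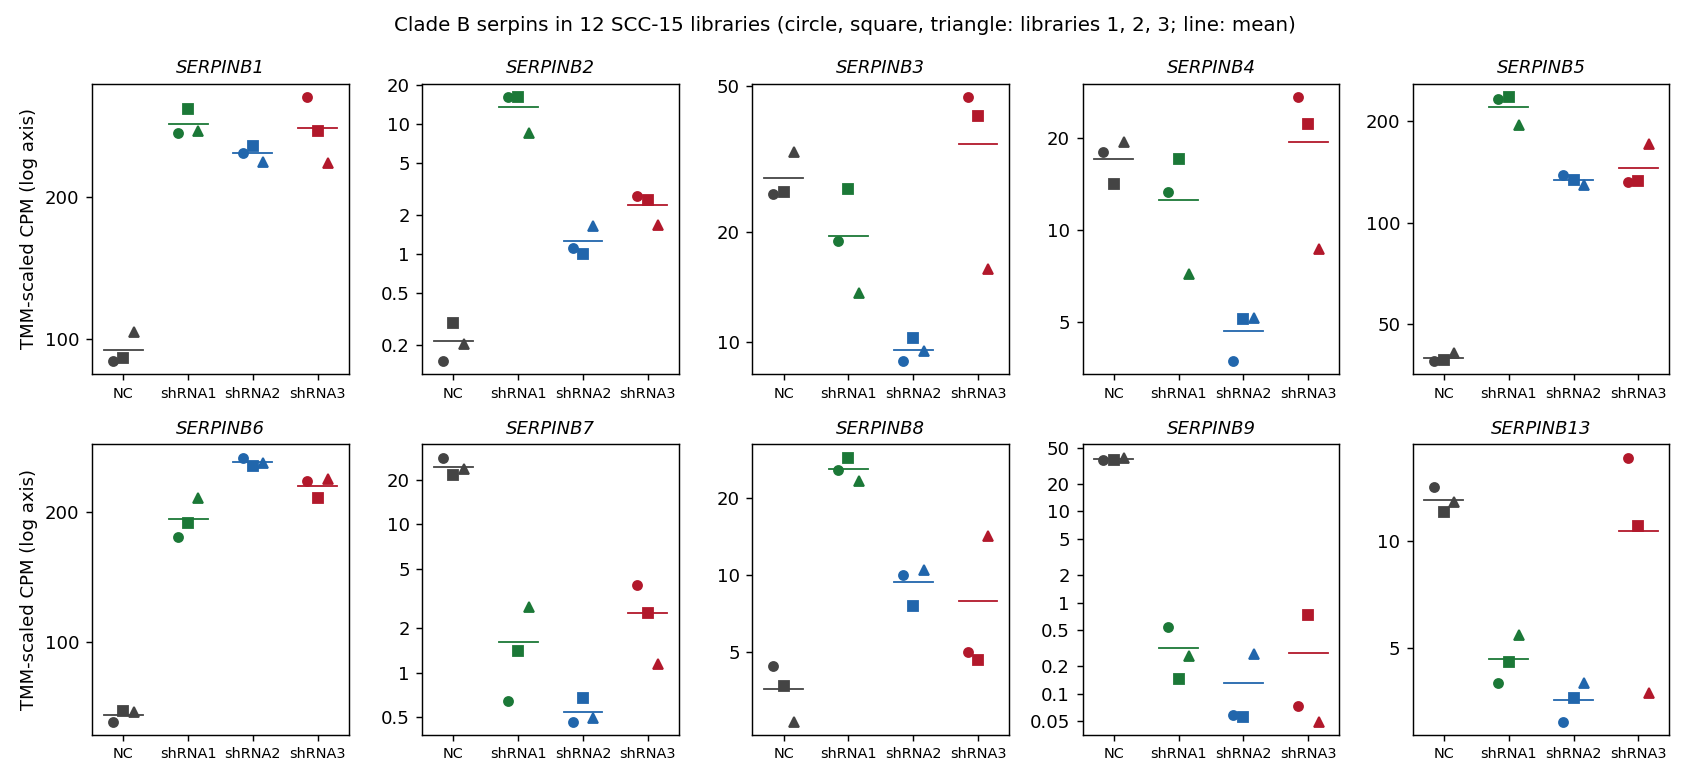
TMM-scaled CPM (log axis, its range set for each gene) of the 10 clade B serpins in NC, shRNA1, shRNA2 and shRNA3; each symbol is 1 library (circle, square and triangle for libraries 1, 2 and 3) and the line is the mean of 3. SERPINB9 falls from a mean of 37.4 CPM in NC to under 1 CPM in all 9 hairpin libraries, while SERPINB3, SERPINB4 and SERPINB13 have shRNA3 libraries both high and low.

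The first role is the control of granule serine proteases. SERPINB9, the inhibitor of granzyme B that protects cytotoxic lymphocytes and some tumour cells from their own or an attacker's granules, had the largest decrease of the 10 members with each hairpin. It was at 36.7, 36.8 and 38.9 CPM in the NC libraries. With shRNA1 it was at 0.547, 0.145 and 0.258 CPM, with shRNA2 at 0.0585, 0.0563 and 0.277 CPM, and with shRNA3 at 0.0741, 0.728 and 0.0496 CPM. All 9 hairpin libraries lay far below all 3 NC libraries, on 1 to 11 counts each against 728 to 767 counts. These counts are rounded, since the deposited estimates of SERPINB9 were not whole in any of the 12 libraries. The differences were -6.86 (SE 0.70, adjusted p = 1.13e-05), -8.08 (SE 0.77, adjusted p = 7.45e-06) and -7.11 (SE 0.73, adjusted p = 1.26e-05), or 116-, 270- and 138-fold lower. Since they rest on so few counts, the 95% intervals are wide, from -8.39 to -5.33, from -9.77 to -6.38 and from -8.70 to -5.52. Single libraries move the sizes by over 1.5-fold: the difference was -7.49 without shRNA1 library 1, -9.16 without shRNA2 library 3, -9.09 without shRNA3 library 2, -6.52 without shRNA3 library 3 and -9.36 without shRNA3 libraries 1 and 2. For a library with 1 count, shRNA2 library 1, counting error alone allows 0.00145 to 0.319 CPM before TMM scaling. A difference between hairpins was not detectable at this depth; the 95% interval was -0.76 to 3.20 for shRNA1 against shRNA2, -1.56 to 2.07 for shRNA1 against shRNA3 and -3.09 to 1.16 for shRNA2 against shRNA3.

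SERPINB1, the inhibitor of neutrophil elastase, cathepsin G and proteinase 3, was at 89.8, 91.2 and 104 CPM in NC. It was at 275, 308 and 277 CPM with shRNA1, at 249, 258 and 238 CPM with shRNA2 and at 327, 277 and 236 CPM with shRNA3. Every hairpin library was above every NC library. The rise was 1.59 (SE 0.14, adjusted p = 4.06e-06), 1.39 (SE 0.14, adjusted p = 1.08e-05) and 1.56 (SE 0.14, adjusted p = 5.11e-06), or 3.02-, 2.62- and 2.96-fold. No pair of hairpins was called different; the 95% interval was -0.10 to 0.51 for shRNA1 against shRNA2, -0.27 to 0.33 for shRNA1 against shRNA3 and -0.48 to 0.13 for shRNA2 against shRNA3.

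SERPINB6, which inhibits cathepsin G and is needed by the sensory hair cells of the inner ear, was higher with each hairpin. It was at 65.4, 69.4 and 68.8 CPM in NC, at 175, 189 and 215 CPM with shRNA1, at 267, 255 and 259 CPM with shRNA2 and at 236, 215 and 238 CPM with shRNA3. Its NC libraries lay below all others, and shRNA2 lay above shRNA1 with no overlap. The rise against NC was 1.51 (SE 0.12, adjusted p = 1.78e-06), 1.94 (SE 0.12, adjusted p = 3.53e-07) and 1.76 (SE 0.12, adjusted p = 6.80e-07). The difference of shRNA1 from shRNA2 was -0.43 (adjusted p = 0.0333), but it was called in only 4 of 12 alternatives, with an adjusted p of up to 0.133. Among those that lost it were the fits without shRNA1 library 1 or 2 and without any 1 of the shRNA2 libraries. SERPINB1, SERPINB6 and SERPINB9 are neighbours on the minus strand of chromosome 6 (GRCh38, GENCODE 29), at 2832332-2842006, 2948159-2972165 and 2887266-2903280. SERPINB9, which lies between the other two, is thus the member that fell.

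The second role is the control of the urokinase system and of furin. SERPINB2, known as plasminogen activator inhibitor type 2, was almost silent in NC, with 3, 6 and 4 counts (0.151, 0.295 and 0.203 CPM). It reached 16.1, 16.3 and 8.56 CPM with shRNA1, 1.11, 1.01 and 1.66 CPM with shRNA2 and 2.82, 2.62 and 1.69 CPM with shRNA3. The shRNA1 libraries were the highest, and no hairpin library overlapped NC. The rise was 5.93 with shRNA1 (SE 0.44, adjusted p = 1.26e-06), 2.51 with shRNA2 (SE 0.43, adjusted p = 0.000516) and 3.40 with shRNA3 (SE 0.43, adjusted p = 5.5e-05). In folds these are 61.0, 5.68 and 10.6, on 13 NC counts in all. SERPINB2 was also 10.8-fold higher with shRNA1 than with shRNA2 (3.43, adjusted p = 0.000672) and 5.77-fold higher than with shRNA3 (2.53, adjusted p = 0.00259); the latter was not called with only the 6 libraries compared (adjusted p = 0.117).

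PLAU, the gene of urokinase, which SERPINB2 inhibits, went the other way. It averaged 495 ± 26.6 CPM in NC and 8.85 ± 1.17, 5.23 ± 0.0778 and 13.3 ± 5.55 CPM with the 3 hairpins (SD, n = 3 each). The differences were -5.81, -6.56 and -5.23 (SE 0.30, 0.31 and 0.29, adjusted p at most 1.96e-07).

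SERPINB8, an inhibitor of the proprotein convertase furin, was at 4.44, 3.69 and 2.69 CPM in NC. It was at 25.8, 28.7 and 23.2 CPM with shRNA1, 10.1, 7.60 and 10.5 CPM with shRNA2 and 5.04, 4.66 and 14.2 CPM with shRNA3. After TMM scaling the 3 groups of hairpin libraries lay above NC, shRNA3 libraries 1 and 2 only just; before it these 2, at 3.89 and 3.70 CPM, lay inside the NC range of 2.97 to 4.86 CPM. The rise was 2.84 (SE 0.41, adjusted p = 0.000137), 1.38 (SE 0.40, adjusted p = 0.0118) and 1.15 (SE 0.40, adjusted p = 0.0278). With shRNA3 library 3 left out it was 0.42 (adjusted p = 0.112), and with libraries 1 and 2 left out 2.0. With shRNA2 it was 1.21 (adjusted p = 0.0531) when NC library 3 was left out. FURIN itself averaged 157 CPM in NC and 175, 207 and 274 CPM with the hairpins, and was called higher only with shRNA3 (0.81, adjusted p = 0.00666), whose libraries were at 340, 310 and 173 CPM; without libraries 1 and 2 the difference was 0.18.

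**Figure D2:**
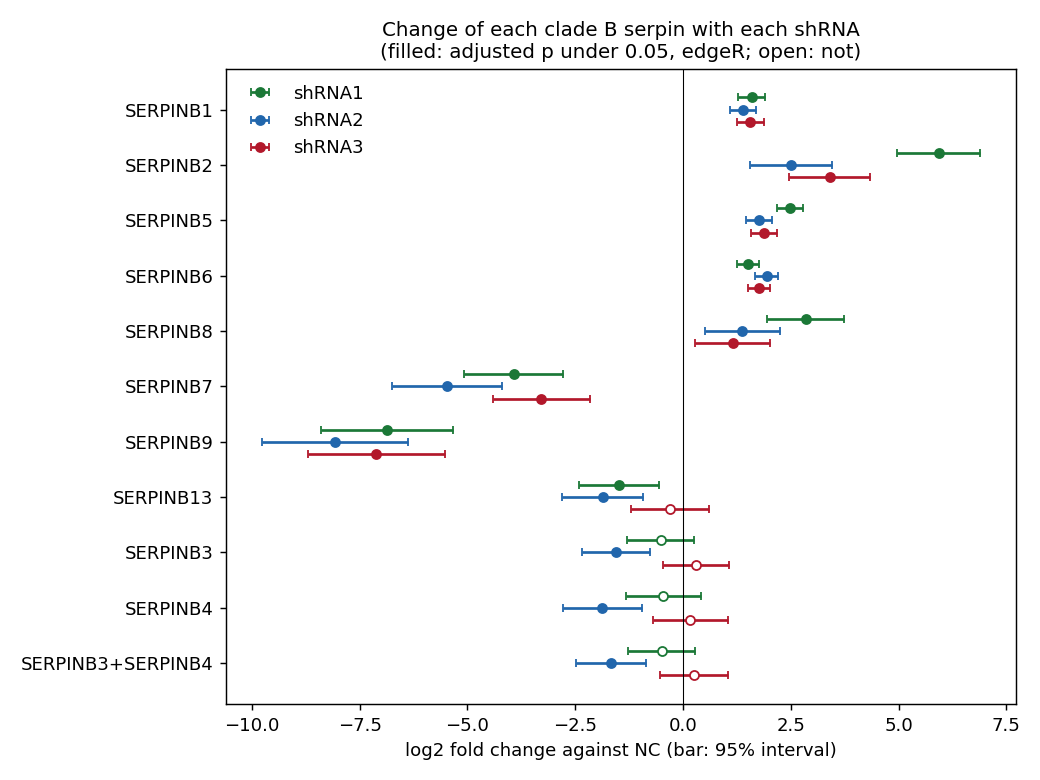
Log2 fold change against NC of the 10 members and of SERPINB3 and SERPINB4 summed, for shRNA1, shRNA2 and shRNA3; bars are 95% intervals, and filled points have an adjusted p under 0.05. SERPINB2 has the largest rise (5.93 with shRNA1) and SERPINB9 the largest fall (-8.08 with shRNA2), and SERPINB3, SERPINB4 and SERPINB13 are the members with unfilled points.

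The third role is the control of cysteine cathepsins. SERPINB3 inhibits papain-like cathepsins such as cathepsin L, and SERPINB4, its near copy, is better known for inhibiting cathepsin G and chymase. They lie next to each other on the minus strand of chromosome 18 (GRCh38, GENCODE 29), SERPINB4 at 63637259-63644298 and SERPINB3 at 63655197-63661963. Their coding sequences are 95.2% identical (56 differences over 1173 aligned bases), against 51.0% to 72.8% for every other pair of members. The differences are unevenly placed, with 5, 17, 12 and 22 in 4 successive stretches of equal length, and the longest identical run is 129 bases. The densest stretch, bases 950 to 1069 of the GENCODE 29 coding sequence, holds 18 of them and is shown because reads can be told apart there; capitals mark the bases at which the pair differ.
SERPINB3: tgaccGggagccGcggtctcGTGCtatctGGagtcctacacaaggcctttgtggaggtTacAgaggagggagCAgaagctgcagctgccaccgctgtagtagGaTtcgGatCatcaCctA
SERPINB4: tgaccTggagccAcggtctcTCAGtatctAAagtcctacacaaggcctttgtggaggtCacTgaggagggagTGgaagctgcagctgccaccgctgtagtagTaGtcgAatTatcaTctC
Within the identical runs a short read cannot be told from its copy. Of all stretches of 100 bases of the SERPINB4 transcript, 3.45% were shared with SERPINB3. Both genes had estimated counts that were not whole in 6 of 12 libraries. This does not single out the pair, since it held for SERPINB1 in 3, SERPINB6 in 9, SERPINB8 in 10 and SERPINB9 in 12. Because of the identical runs the pair is also given as a sum.

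SERPINB3 was at 25.3, 25.7 and 33.0 CPM in NC, at 18.8, 26.1 and 13.6 CPM with shRNA1, at 8.89, 10.3 and 9.46 CPM with shRNA2 and at 46.7, 41.5 and 15.9 CPM with shRNA3. The shRNA2 libraries were the lowest of all 12, shRNA1 overlapped NC, and shRNA3 had 2 libraries above NC and 1 below. Before TMM scaling these 2, at 36.0 and 33.0 CPM, lay inside the NC range of 27.7 to 36.5 CPM. SERPINB4 was at 17.9, 14.1 and 19.3 CPM in NC, 13.3, 17.1 and 7.17 CPM with shRNA1, 3.74, 5.12 and 5.15 CPM with shRNA2 and 27.2, 22.2 and 8.68 CPM with shRNA3. It had the same order of groups and the same split within shRNA3. Before TMM scaling its shRNA3 libraries 1 and 2, at 21.0 and 17.6 CPM, lay inside the NC range of 15.7 to 21.3 CPM.

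With shRNA2 the fall against NC was -1.55 for SERPINB3 (SE 0.36, adjusted p = 0.00356) and -1.87 for SERPINB4 (SE 0.42, adjusted p = 0.00279), or 2.94- and 3.66-fold. The sum of the pair went from 45.1 ± 6.49 CPM in NC to 14.2 ± 1.42 CPM (SD, n = 3 each), a fall of 3.18-fold (-1.67, SE 0.37, adjusted p = 0.00264). With shRNA1 the sum was 32.1 ± 11.2 CPM (-0.49, 95% interval -1.28 to 0.29, adjusted p = 0.259). With shRNA3 it was 54.0 ± 26 CPM (0.26, 95% interval -0.52 to 1.04, adjusted p = 0.563), at 73.9, 63.7 and 24.6 CPM in libraries 1, 2 and 3. Without library 3 the sum was higher than NC (0.60, adjusted p = 0.028), and without libraries 1 and 2 the difference was -0.85. The direction of the shRNA3 value thus turns when libraries are left out, and it also turns under scaling by library totals alone (-0.16).

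SERPINB3 made up 58.6% to 70.4% of the counts of the pair over the 12 libraries. The lowest share, in NC library 1, had an exact (Clopper-Pearson) 95% interval of 55.2% to 61.9%. The highest, in shRNA2 library 1, had one of 63.8% to 76.4%. These intervals do not overlap, but they cover counting error only and belong to the extremes picked from 12 libraries. Within NC alone the share ran from 58.6% to 64.5%. In shRNA3 the share was 63.2%, 65.1% and 64.6%, so both genes were split alike between its libraries. The bases just before both start sites are almost the same as well: the 250 bases upstream (RefSeq, GRCh38.p14, minus strand) of SERPINB3, chr18:63661894-63662143, and of SERPINB4, chr18:63644257-63644506, differ at 3 positions (98.8% identical), marked by capitals.
SERPINB3 upstream: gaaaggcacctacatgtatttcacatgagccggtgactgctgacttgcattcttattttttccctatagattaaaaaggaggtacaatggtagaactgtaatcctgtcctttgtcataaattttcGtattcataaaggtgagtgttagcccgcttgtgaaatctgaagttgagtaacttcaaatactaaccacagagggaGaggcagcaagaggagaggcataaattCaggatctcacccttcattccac
SERPINB4 upstream: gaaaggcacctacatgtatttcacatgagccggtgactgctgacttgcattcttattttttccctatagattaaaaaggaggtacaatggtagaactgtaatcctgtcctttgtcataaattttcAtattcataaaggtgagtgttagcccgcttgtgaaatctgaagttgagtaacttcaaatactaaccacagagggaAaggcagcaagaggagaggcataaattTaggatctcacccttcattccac
Both sequences are printed to show that the near identity of the pair extends upstream of the RefSeq start. By the GENCODE positions the last bases of each lie inside the gene.

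SERPINB13, an inhibitor of cathepsins L and K that is found in differentiating keratinocytes, was at 14.2, 12 and 12.8 CPM in NC. It was at 3.98, 4.55 and 5.41 CPM with shRNA1, 3.10, 3.60 and 3.98 CPM with shRNA2 and 17.1, 11 and 3.72 CPM with shRNA3. Both shRNA1 and shRNA2 lay below NC with no overlap, while shRNA3 had 1 library above all of NC, 1 just below it and 1 far below. Before TMM scaling the shRNA3 libraries were at 13.2, 8.73 and 3.96 CPM, all below the NC range of 13.3 to 15.5 CPM. The difference was -1.48 with shRNA1 (SE 0.42, adjusted p = 0.0103), -1.86 with shRNA2 (SE 0.43, adjusted p = 0.00326) and -0.30 with shRNA3 (SE 0.41, adjusted p = 0.559), the last of them not called. Without shRNA3 libraries 1 and 2 the last difference was -1.77, and without library 3 it was 0.11 (adjusted p = 0.65).

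**Figure D3:**
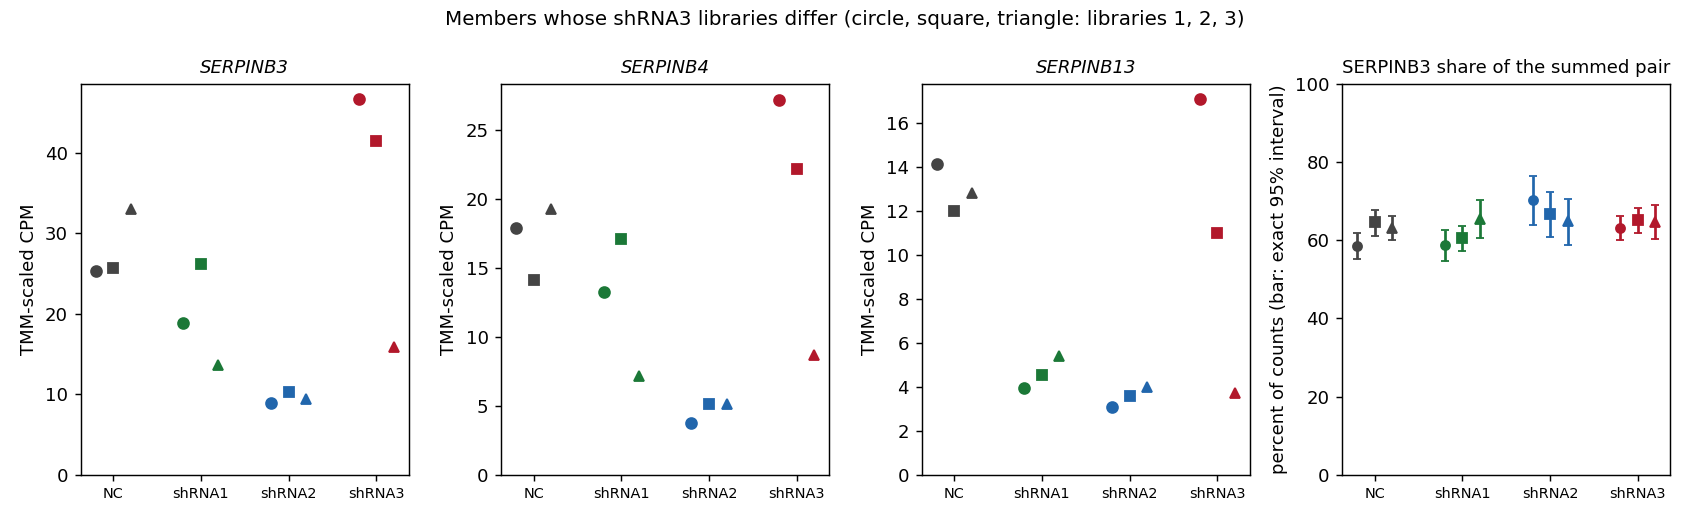
TMM-scaled CPM of SERPINB3, SERPINB4 and SERPINB13 in each library, and the share of SERPINB3 in the counts of SERPINB3 and SERPINB4 with exact 95% intervals. With shRNA3, library 3 is the lowest of its group for all 3 genes, while the share lies between 58.6% and 70.4% in all 12 libraries.

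Among their targets, CTSV, the cathepsin L-like protease of epithelia, averaged 70.8 CPM in NC and 12.6, 12.7 and 21.1 CPM with the hairpins, a fall with each (-2.48, -2.48 and -1.75, adjusted p at most 8.51e-05). CTSL, cathepsin L itself, averaged 117 CPM in NC and 207, 142 and 296 CPM. It was called higher with shRNA1 (0.83, adjusted p = 0.0364) and shRNA3 (1.35, adjusted p = 0.00334) and not with shRNA2 (0.29, adjusted p = 0.452). The shRNA1 call was lost when any 1 of the NC or shRNA1 libraries was left out (adjusted p = 0.057 to 0.101), and the shRNA3 difference was 0.18 without libraries 1 and 2. Its shRNA3 libraries, at 380, 380 and 130 CPM, were split as those of SERPINB3 and SERPINB4 were, with library 3 the lowest. Of the 13 proteases listed as targets of clade B serpins, 9 were tested; 2, 1 and 3 were higher and 6, 5 and 5 lower with shRNA1, shRNA2 and shRNA3, with a median log2 difference of -1.20, -2.13 and -0.96. The granule proteases CTSG and CMA1 were at 0 in all 12 libraries, GZMB had at most 2 counts, and ELANE had at most 8. PRTN3, the gene of proteinase 3, had 0 counts in NC and averaged 0.510, 1.05 and 4.28 CPM with shRNA1, shRNA2 and shRNA3. It was called higher with each (adjusted p = 0.00516, 0.00161 and 0.000238). Its shRNA3 libraries were at 6.59, 5.32 and 0.943 CPM.

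The remaining members have no established protease partner or a disputed one. SERPINB5, maspin, does not inhibit proteases in the usual serpin manner and is known as a suppressor of invasion in breast epithelium. It was at 38.8, 39.1 and 40.9 CPM in NC, at 233, 237 and 195 CPM with shRNA1, at 139, 134 and 129 CPM with shRNA2 and at 132, 133 and 172 CPM with shRNA3. NC was lowest and shRNA1 highest, with no overlap between shRNA1 and any other group. The rise was 2.48 (SE 0.14, adjusted p = 2.41e-07), 1.76 (SE 0.14, adjusted p = 1.84e-06) and 1.88 (SE 0.14, adjusted p = 1.34e-06), or 5.59-, 3.38- and 3.67-fold. It was 1.65-fold higher with shRNA1 than with shRNA2 (0.72, adjusted p = 0.00808) and 1.52-fold higher than with shRNA3 (0.60, adjusted p = 0.0107). The call against shRNA2 was lost without shRNA2 library 3 (0.69, adjusted p = 0.0514). The call against shRNA3 held in 8 of 13 alternatives: it was lost without shRNA1 library 2 (0.55, adjusted p = 0.0502), shRNA3 library 1 (0.50, adjusted p = 0.0566) or shRNA3 library 2 (0.51, adjusted p = 0.056) and with only the 6 libraries compared (adjusted p = 0.135), and the difference was 0.35 without shRNA3 libraries 1 and 2.

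SERPINB7, megsin, an epidermal serpin whose loss causes a palmoplantar keratoderma, was at 28.2, 21.5 and 23.8 CPM in NC. It was at 0.646, 1.40 and 2.78 CPM with shRNA1, at 0.468, 0.676 and 0.498 CPM with shRNA2 and at 3.93, 2.55 and 1.14 CPM with shRNA3. All hairpin libraries lay far below NC. The fall was -3.92 (SE 0.52, adjusted p = 8.08e-05), -5.47 (SE 0.58, adjusted p = 1.63e-05) and -3.29 (SE 0.51, adjusted p = 0.000257), or 15.2-, 44.2- and 9.75-fold. The first of these was -4.56 without shRNA1 library 3, and the last was -4.39 without shRNA3 libraries 1 and 2.

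Between the hairpins, 5 members were called for shRNA1 against shRNA2 (4 higher, 1 lower), 3 for shRNA1 against shRNA3 (3 higher, 0 lower) and 4 for shRNA2 against shRNA3 (0 higher, 4 lower). Of all tested genes, 12.3% were called for shRNA1 against shRNA2 (5.78% higher, 6.53% lower), 30% for shRNA1 against shRNA3 (11.9% higher, 18.1% lower) and 8.34% for shRNA2 against shRNA3 (1.91% higher, 6.43% lower). Libraries did not overlap for 7, 4 and 5 members, against 49.5%, 30.2% and 27.1% of tested genes. Besides SERPINB2, SERPINB5 and SERPINB6, shRNA1 differed from shRNA2 in SERPINB4 (1.42, adjusted p = 0.0461) and SERPINB8 (1.46, adjusted p = 0.0322), both higher with shRNA1; these were called in 6 and 5 of 12 alternatives. SERPINB8 was also higher with shRNA1 than with shRNA3 (1.69, adjusted p = 0.0121), called in 11 of 13 alternatives. The 4 members called between shRNA2 and shRNA3 were all lower with shRNA2: SERPINB3 (-1.86, adjusted p = 0.0269), SERPINB4 (-2.05, adjusted p = 0.0286), SERPINB7 (-2.18, adjusted p = 0.0423) and SERPINB13 (-1.57, adjusted p = 0.0478). No member was called by edgeR (4 to 5 had an unadjusted p under 0.05) when shRNA3 libraries 1 and 2 were left out, which leaves 1 library, nor when any 1 shRNA2 library or shRNA3 library 1 or 2 was, whereas leaving out shRNA3 library 3 gave 7 calls. The comparison of shRNA1 with shRNA3 gave 1 call without libraries 1 and 2 and 7 without library 3. The comparison of shRNA1 with shRNA2 gave 2 calls without shRNA1 library 1 or 2 or shRNA2 library 1 or 2, and 1 call without shRNA2 library 3.

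Levels can be compared between genes only per length, here CPM per kb of the GENCODE 29 transcript with the longest coding sequence. In NC the order from the highest was SERPINB6 (43.3), SERPINB1 (36.2), SERPINB3 (15.8), SERPINB5 (14.2), SERPINB7 (11.1), SERPINB4 (9.78), SERPINB9 (9.09), SERPINB13 (4.05), SERPINB8 (1.04) and SERPINB2 (0.100). SERPINB3 and SERPINB5 overlapped, as did SERPINB7 with SERPINB4 and SERPINB4 with SERPINB9. With each hairpin the top 3 were SERPINB6, SERPINB1 and SERPINB5: 123, 109 and 79.5 with shRNA1, 166, 94.8 and 48.1 with shRNA2, and 147, 107 and 52.3 with shRNA3. In shRNA1 the first pair overlapped. SERPINB9 was last with each hairpin, at 0.0769, 0.0317 and 0.0689, and SERPINB2 was not last in any of them. The place of SERPINB6 depends on the length: over the union of all its annotated exons, 13201 bases against the 1566 of that transcript, its NC level was 5.14 per kb, seventh of 10. With the union of exons for every gene, SERPINB1 and SERPINB5 led with each hairpin. SERPINB6 then had rank 3 with shRNA1 and shRNA2 and rank 4 with shRNA3, where SERPINB3 was above it. The transcript length was taken after both orders were seen.

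**Figure D4:**
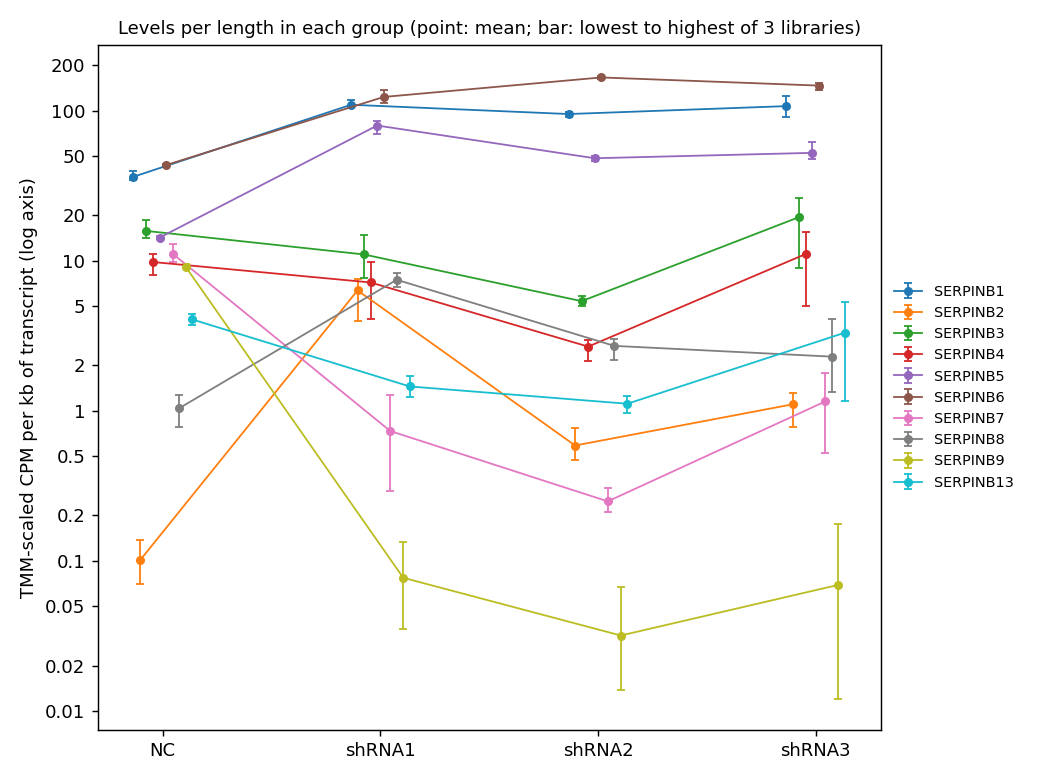
TMM-scaled CPM per kb of transcript (log axis) of the 10 members in each group; points are means and bars run from the lowest to the highest of 3 libraries. SERPINB9 drops from 9.09 in NC to the lowest place with each hairpin, and SERPINB2 climbs from the lowest place in NC, 0.100.

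Both clusters held genes that moved in opposite directions side by side. Beside the chromosome 6 trio, WRNIP1, a DNA-repair ATPase gene, averaged 89.6 CPM in NC and 253, 175 and 250 CPM with the hairpins, a rise with each (1.50, 0.97 and 1.48, adjusted p at most 0.000742). NQO2, a quinone reductase gene on the other side, was called higher with shRNA2 (0.64, adjusted p = 0.0014) and shRNA3 (0.62, adjusted p = 0.00174), not with shRNA1 (0.30, adjusted p = 0.0652); the shRNA3 call was lost under library totals alone (adjusted p = 0.124). RIPK1, the kinase gene next to it, was at 4.15, 3.71 and 68.9 CPM in the shRNA3 libraries and averaged 18.7 CPM in NC, 94.3 with shRNA1 and 43.5 with shRNA2. It was called higher with shRNA1 (2.33, adjusted p = 0.035), a call that held in only 4 of 12 alternatives. It was not called with shRNA2 (1.21, adjusted p = 0.239) or shRNA3 (0.46, adjusted p = 0.657). MYLK4, a kinase gene with at most 2 counts in NC, rose above the floor of 3 counts per NC library by at least 11.9-, 6.89- and 13.8-fold. Of the 11 tested neighbours there, 5, 4 and 4 were higher and 1, 1 and 1 lower with shRNA1, shRNA2 and shRNA3.

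On chromosome 18 the order along the plus direction is SERPINB5 (63476761-63505085), SERPINB13 (63586989-63604639), SERPINB4, SERPINB3, SERPINB7 (63752935-63805376), SERPINB2 (63871692-63903890) and SERPINB8 (63969925-64019779). SERPINB7, lower with each hairpin, thus lies next to SERPINB2, higher with each. SERPINB12, the clade B gene between SERPINB5 and SERPINB13, had at most 1 count in NC and averaged 0.899, 1.22 and 0.428 CPM with the hairpins, at least 5.98-, 8.10- and 2.85-fold above the floor. In shRNA3 its libraries were at 0.222, 0.218 and 0.843 CPM, so only library 3 was clearly above. The clade B genes SERPINB10 and SERPINB11 had at most 3 counts and 1 count in any library. They overlap SERPINB2 and SERPINB3, and share with them 21.9% and 31.1% of all stretches of 100 bases of the transcript; for SERPINB11 that sequence is on the opposite strand. Whether counting used strand is not given in the sources used here. Outside the cluster, KDSR, a sphingolipid enzyme gene, was higher with each hairpin (1.36, 0.65 and 0.70, adjusted p at most 0.0122), although the last 2 calls were lost under library totals alone (adjusted p = 0.131 and 0.209). VPS4B, an endosomal sorting ATPase gene, was called higher with shRNA1 alone (0.44, adjusted p = 0.0162), against 0.12 with shRNA2 (adjusted p = 0.493) and -0.21 with shRNA3 (adjusted p = 0.211). The shRNA1 call was lost in 5 of 12 alternatives, among them those without NC library 1 or 2 or shRNA1 library 2 (adjusted p = 0.062, 0.0546 and 0.0579), and without shRNA3 library 3 the shRNA3 difference was called (-0.35, adjusted p = 0.00618). Of the 6 tested neighbours, 3, 2 and 2 were higher and none lower.

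**Figure D5:**
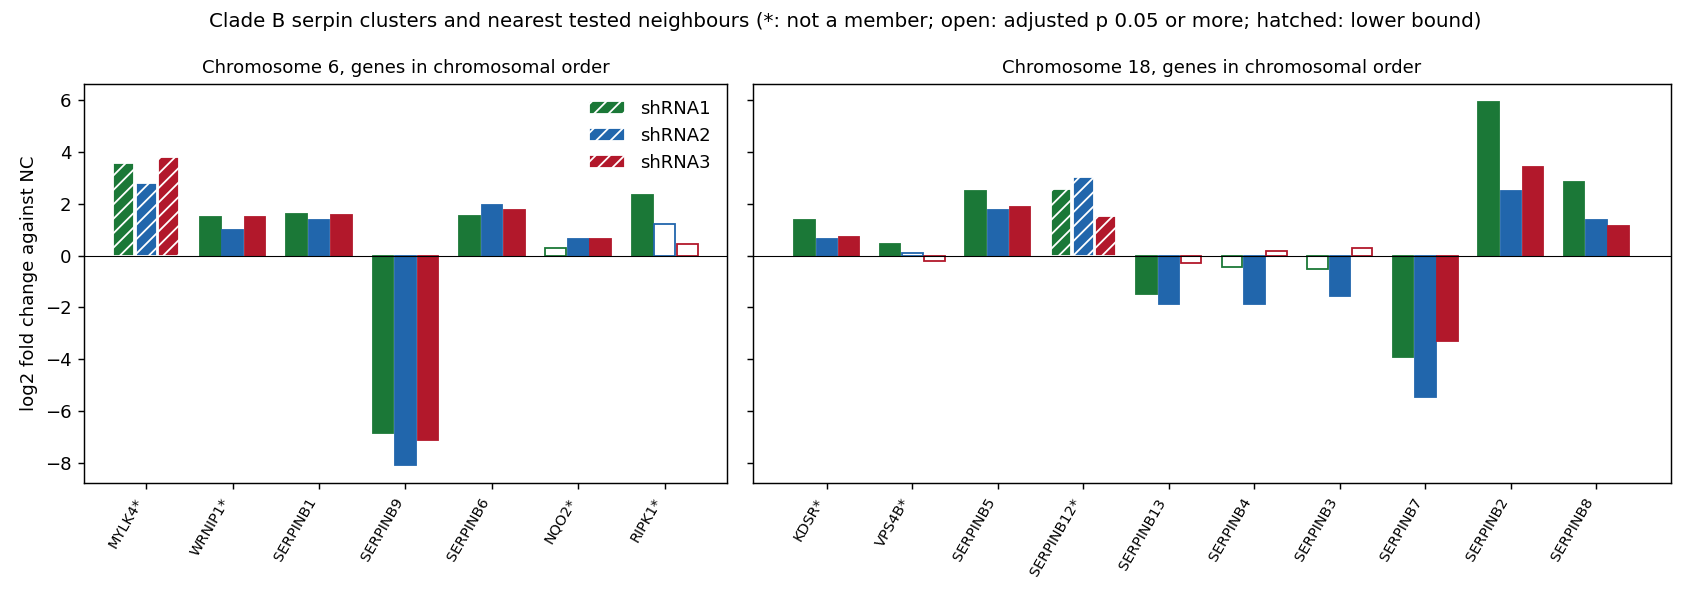
Log2 fold change against NC of the members, in chromosomal order on chromosomes 6 and 18, with the nearest tested neighbours (asterisk: not a member; open bars: adjusted p of 0.05 or more; hatched bars: lower bounds against 3 NC counts). SERPINB9 falls between SERPINB1 and SERPINB6, which rise, and SERPINB7 falls next to SERPINB2, which rises.

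The start-site windows of the members were searched for the letters TGANTCA, where N is any base. This pattern is looser than the core of AP-1 sites, which has C or G at N. The letters read the same on both strands. A RefSeq window of 300 bases (250 before the start and 50 after) held them for 5 of 10 members, namely SERPINB2, SERPINB5, SERPINB7, SERPINB8 and SERPINB13, against 9.37% of 27305 genes. All 5 lie on chromosome 18. Of them, 3 were higher with each hairpin, SERPINB7 was lower with each, and SERPINB13 was lower with 2 of 3. With C or G at N, the letters were found only in SERPINB7, SERPINB8 and SERPINB13. SERPINB2 and SERPINB5 held only TGAATCA. The share of all genes with C or G at N was not computed. The related letters TGACGTCA were in none of the 10 and in 2.25% of all genes. The 250 bases upstream of the RefSeq start are shown for SERPINB2 (chr18:63887455-63887704), SERPINB5 (chr18:63476708-63476957) and SERPINB8 (chr18:63969831-63970080), all on the plus strand. They are shown because these 3 members hold the letters and were higher with each hairpin. Capitals mark TGANTCA, which ends 95 bases before the RefSeq start in SERPINB2, 139 in SERPINB5, and 178 and 21 in SERPINB8. The GENCODE genes start earlier, at 63871692, 63476761 and 63969925 in that order. By those positions the letters in SERPINB2 and SERPINB5, and the match at 21 bases in SERPINB8, lie inside the gene.
SERPINB2 upstream: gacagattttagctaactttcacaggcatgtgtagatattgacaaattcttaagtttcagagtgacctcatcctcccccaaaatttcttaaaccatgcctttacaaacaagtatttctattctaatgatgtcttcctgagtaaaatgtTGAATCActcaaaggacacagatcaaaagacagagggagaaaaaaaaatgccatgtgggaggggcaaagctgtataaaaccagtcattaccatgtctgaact
SERPINB5 upstream: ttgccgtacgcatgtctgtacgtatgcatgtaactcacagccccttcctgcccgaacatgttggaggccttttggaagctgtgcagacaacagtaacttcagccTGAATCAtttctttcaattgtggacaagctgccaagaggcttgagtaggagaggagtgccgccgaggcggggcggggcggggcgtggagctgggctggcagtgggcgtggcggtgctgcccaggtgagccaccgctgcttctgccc
SERPINB8 upstream: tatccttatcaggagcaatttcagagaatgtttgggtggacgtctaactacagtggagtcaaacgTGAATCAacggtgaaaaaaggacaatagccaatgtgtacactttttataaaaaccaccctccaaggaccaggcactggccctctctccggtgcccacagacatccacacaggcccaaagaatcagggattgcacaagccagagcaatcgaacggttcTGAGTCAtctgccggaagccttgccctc
A match is a description of the letters and not of a factor bound there.

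Among the 22 serpins of other clades 12 were tested, of which 3, 3 and 4 were higher and 6, 6 and 5 lower with shRNA1, shRNA2 and shRNA3. SERPINH1, a collagen chaperone, averaged 101 CPM in NC and 104, 131 and 132 CPM, called higher with shRNA2 (0.38, adjusted p = 0.0391) and shRNA3 (0.38, adjusted p = 0.0346). These calls were lost in 10 of 12 and 6 of 13 alternatives, among them those without NC library 2 or 3 and, for shRNA2, without any 1 of its own libraries (adjusted p up to 0.353 and 0.755). Of the 9 tested among 12 other epithelial protease inhibitors, 3, 3 and 5 were higher and 2, 3 and 2 lower. SLPI, the secretory leukocyte protease inhibitor, which shares neutrophil elastase as a target with SERPINB1, rose with each hairpin, from 34.7 CPM in NC to 313, 203 and 494 CPM (3.17, 2.55 and 3.83, adjusted p at most 0.000158). SPINT2, a Kunitz inhibitor of membrane serine proteases, was called higher with shRNA3 (0.91, adjusted p = 0.0123), at 1867, 1807 and 772 CPM in its libraries against a mean of 790 CPM in NC; the call was lost with only the 6 libraries compared (adjusted p = 0.0732) and the difference was near 0 without libraries 1 and 2.

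In shRNA3, libraries 1 and 2 were both above library 3 for 11 of the 14 squamous markers and both below it for 3. JUP was at 2056, 1914 and 684 CPM and KRT17 at 865, 841 and 539 CPM in shRNA3 libraries 1, 2 and 3. The part of these markers in the values of SERPINB3, SERPINB4 and SERPINB13 was not tested.

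Markers of other cells were low or mixed. The 9 fibroblast markers summed to 56.8 to 59.9 CPM in NC, 15.6 to 21.7 with shRNA1, 44.2 to 48.2 with shRNA2 and 33.1 to 86.6 with shRNA3. Of the 4 tested, 0 were higher and 4, 3 and 3 lower; COL1A1, a collagen gene, averaged 41.7, 17.3, 44.6 and 65.8 CPM in the 4 groups and PDGFRB, a growth factor receptor gene, 10.7, 0.765, 1.10 and 0.727 CPM, while DCN had 0 counts in NC. The 11 leukocyte markers, cells in which SERPINB1, SERPINB6 and SERPINB9 are abundant, summed to 63.4 to 81.1 CPM in NC, 50.3 to 106 with shRNA1, 89.3 to 96.0 with shRNA2 and 121 to 243 with shRNA3. Of the 4 tested, 1, 1 and 2 were higher and 2 lower with each hairpin. CD68, a lysosomal protein not limited to leukocytes, carried most of that sum, with means of 63.1, 75.5, 82.3 and 191 CPM, and CSF1R averaged 2.96, 6.56, 6.96 and 6.54 CPM. CD2 and MS4A1 were at 0 in all libraries, and PTPRC, the pan-leukocyte marker, was at 0 in NC and averaged at most 0.162 CPM in a hairpin group. The 6 endothelial markers summed to 18 to 23.4 CPM in NC, 4.03 to 6.08 with shRNA1, 6.86 to 8.56 with shRNA2 and 8.74 to 14.2 with shRNA3. Of the 3 tested, 1 was higher and 2 lower with each hairpin: PECAM1 averaged 0.133 CPM in NC and 2.60, 4.75 and 8.73 CPM, and CDH5 17.3 CPM in NC and 1.94, 2.53 and 1.35 CPM.

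The gene whose level followed a member most closely, given here for 9 of the 10, was found by Pearson correlation of log2(CPM + 1) over the 12 libraries, among 14664 tested genes; the libraries share their groups, so high values are common. These were BZW1 for SERPINB1 (r = 0.995), MLX for SERPINB2 (0.988), LINC02940 for SERPINB4 (0.972) and NMNAT2 for SERPINB5 (0.995). For the others they were TWIST2 for SERPINB6 (0.997), C1S for SERPINB7 (0.988), ZNF544 for SERPINB8 (0.981), TMC3-AS1 for SERPINB9 (0.998) and PARP6 for SERPINB13 (0.981). The number of genes with r over 0.9 ran from 81 for SERPINB4 to 1470 for SERPINB9.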

How the data were processed

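The sources used here give 1 table for 12 libraries. The authors deposited estimated counts per gene that are not scaled to a common total. HISAT2, HTSeq 0.11.2 and GRCh38 are named per the submitters' processing notes, with no role; 13.8% of the values are not whole, and the annotation and the use of strand are not given in the sources used here. Columns were matched to sample titles (0 unmatched), and symbols were found for 60463 of 61044 identifiers.

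Counts were rounded, scaled by TMM (factors 0.771 to 1.11) and filtered with filterByExpr (minimum count 10, minimum total 15). edgeR 4.0.16 (R 4.3.3, limma 3.58.1) was fitted to all 12 libraries with group as the only term (glmQLFit with robust estimation, two-sided glmQLFTest), and p-values were adjusted by Benjamini-Hochberg over 17532 genes. SERPINB3 and SERPINB4 were also replaced by their sum and the whole table fitted again. No 2 libraries of a group agreed within sampling noise (mean chi-square per gene of at least 3.40). Intervals of a log2 fold change use its SE and the degrees of freedom of the test. The test was also run on simulated counts with changes in a small set of genes, the same spread for every gene and no outlying library. Data in which most genes differ, or in which the libraries of a group split, were not simulated. Exact intervals of counts and the 3-count floor cover counting error only.

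Alternatives were DESeq2 1.42.0 (Wald test, and its size factors in edgeR), no filter, only the 6 libraries compared, a replicate block, each library left out, and shRNA3 libraries 1 and 2 left out. Scaling by library totals alone was added after seeing the data. Positions and transcripts come from GENCODE release 29, upstream sequences from RefSeq (GRCh38.p14). The members and lists were chosen with earlier results of these data known. Named genes are the members, the 2 tested genes with the highest mean CPM of each list, CTSL, CTSV, PLAU, the nearest 2 tested neighbours on each side of a cluster, and the gene most correlated with each member; 2 genes that this rule names are not reported here. KRT5, KRT14, KRT6A, PERP, DSC3, PKP1, CDH1 and PRTN3 were named after their values were seen. So were the markers, proteases and clade B genes named besides for counts at or near 0.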

Additional observations from a re-analysis of the deposited data

Results flagged for a closer look

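With shRNA2 and shRNA3, SERPINB3, SERPINB4 and their sum lay on opposite sides of NC in their group means, and the difference between these hairpins passed the test: the log2 difference of shRNA2 from shRNA3 was -1.86 for SERPINB3, -2.05 for SERPINB4 and -1.93 for the sum (adjusted p = 0.0269, 0.0286 and 0.0269). These calls between the 2 hairpins held in only 6, 5 and 6 of 13 alternatives, in that order. The difference of shRNA3 from NC was not called for SERPINB3, SERPINB4 or the sum. After TMM scaling, shRNA3 libraries 1 and 2 were above every NC library in all 3 cases, and library 3 was below every one. Before scaling, libraries 1 and 2 lay inside the NC range in all 3 cases, and library 3 was still below it. For the sum, libraries 1 and 2 were then at 57.0 and 50.6 CPM, against 44.2 to 57.8 CPM in NC. Without libraries 1 and 2 the sum differed between shRNA2 and shRNA3 by -0.80; shRNA3 is then 1 library, which the fit assumes to vary like the other groups.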

How the results depend on the processing

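Counts of called members against NC stayed within 1.5 times the reported count under every alternative run: 8 throughout for shRNA1, 9 to 10 for shRNA2 and 6 to 9 for shRNA3, or 8 to 8, 9 to 10 and 6 to 7 with 1 library left out. Counts between hairpins did not. For shRNA1 against shRNA2 there were 2 with the replicate block and 1 to 5 with 1 library left out. For shRNA1 against shRNA3 there were 5 with the DESeq2 Wald test, 0 with only the 6 libraries compared, 1 without shRNA3 libraries 1 and 2 (which leaves 1 library, assumed to vary like the other groups), and 2 to 7 with 1 library left out (3 members had an unadjusted edgeR p under 0.05 where 0 were called). For shRNA2 against shRNA3 there were 2 with library totals only, 0 with only the 6 libraries compared, 1 with the replicate block, 0 without shRNA3 libraries 1 and 2, and 0 to 7 with 1 library left out; DESeq2 called 4, and 4 to 5 members had an unadjusted edgeR p under 0.05 wherever 0 were called. Same-numbered libraries did not deviate together (mean r = -0.0107 over 18 pairs, against 0.00443 over 36 pairs with other numbers). This shows no pairing by number but cannot exclude one, and the labels do not say what the numbers mean. The replicate block left 8, 10 and 6 members called against NC. It left the sum of SERPINB3 and SERPINB4 at -0.57, -1.69 and 0.16 for shRNA1, shRNA2 and shRNA3 against NC. Between hairpins the sum was then 1.12, -0.73 and -1.85 for shRNA1 against shRNA2, shRNA1 against shRNA3 and shRNA2 against shRNA3. That sum, for shRNA1 against shRNA2, passed the threshold with only the 6 libraries compared (1.16), the DESeq2 Wald test (1.19), library totals only (1.22) and without shRNA1 library 3 (1.41). For shRNA2 against shRNA3 the sum passed in only 6 of 13 alternatives. It did not pass with only the 6 libraries compared (-1.94), and it was -0.80 without shRNA3 libraries 1 and 2 (1 library left). With 1 library left out the sum ran from -0.76 to -0.25, -1.75 to -1.55 and 0.032 to 0.60 for shRNA1, shRNA2 and shRNA3 against NC, and from 0.89 to 1.41, -1.09 to -0.51 and -2.26 to -1.67 for the 3 hairpin pairs in the order above. Signs turned as follows, and the cause was not tested. With library totals only, shRNA3 against NC gave -0.11 for SERPINB3, -0.24 for SERPINB4 and -0.16 for the sum, and shRNA2 against shRNA3 gave 0.049 for SERPINB1 and 0.051 for SERPINB5. Without shRNA3 libraries 1 and 2, shRNA3 against NC gave -0.79 for SERPINB3, -0.95 for SERPINB4 and -0.85 for the sum; shRNA1 against shRNA3 gave 0.28 for SERPINB3, 0.51 for SERPINB4, 0.47 for SERPINB7, 0.30 for SERPINB13 and 0.37 for the sum; and shRNA2 against shRNA3 gave 0.059 for SERPINB1, -0.61 for SERPINB8 and 1.29 for SERPINB9. With 1 library left out, signs also turned in these ranges, the first setting giving the first value and the second the other. For shRNA3 against NC, SERPINB4 ran from -0.086 (without shRNA3 library 1) to 0.53 (without library 3) and SERPINB13 from -0.76 to 0.11 (the same libraries). For shRNA1 against shRNA3, SERPINB9 ran from -0.38 (without shRNA1 library 1) to 2.26 (without shRNA3 library 2) and SERPINB1 from -0.067 (without shRNA3 library 3) to 0.12 (without shRNA3 library 1). For shRNA2 against shRNA3, SERPINB8 ran from -0.062 (without shRNA3 library 2) to 0.97 (without shRNA3 library 3), SERPINB9 from -2.10 (without shRNA2 library 3) to 1.04 (without shRNA3 library 2) and SERPINB5 from -0.21 (without shRNA3 library 1) to 0.030 (without shRNA3 library 3). The call of SERPINB8 for shRNA3 against NC was also lost with the replicate block (adjusted p = 0.0596), only the 6 libraries compared (0.100), library totals only (0.127) and without NC library 2 (0.0704) or 3 (0.104). Library totals only moved the median of all genes against NC to -0.10, -0.18 and -0.35, and with shRNA3 gave 3216 higher and 5942 lower genes against 4622 and 4835 with TMM. Over all alternatives, members and the sum, 389 values against NC kept direction and call, 8 turned sign, 7 lost a call and 3 gained one; between hairpins these were 306, 20, 70 and 19. Depth limits SERPINB9 in the hairpin libraries and SERPINB2 in NC, where a level rests on 1 to 11 and 3 to 6 counts.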
